A study of Caenorhabditis elegans with 6 samples.

Results

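A total of 6835 windows of the *Caenorhabditis elegans* genome carried more H3K27ac reads in *met-2*-mutant muscle than in wild-type (WT) muscle. They were found among 97452 windows of about 1 kb on the 6 nuclear chromosomes, and thus made up 7.01% of these. The windows were chosen by the H3K27ac difference itself. Each library was scaled to 16977530 reads, the average of the library totals. A window was called higher when log2(scaled reads + 8) in the *met-2* mutant exceeded that in WT by more than 0.5. Windows with a mean of fewer than 20 scaled H3K27ac reads over both genotypes were left out beforehand. There were 2827 of these, 287 of which passed the same difference. No control was subtracted. The size of the H3K27ac difference is therefore a description of what was selected on, whereas position, clustering, the H3K9 marks and the controls were not used to choose the windows.

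ChIC-seq, a CUT&RUN-like assay in which an antibody brings protein A fused to micrococcal nuclease (MNase) to a histone mark, was performed on body wall muscle of larvae at the L3 stage. The mutant was *met-2*(*n4256*) III and the WT was N2 (Bristol). About 5000 cells per sample were sorted by FACS from many larvae, and per the study's methods the sorted strain expressed RFP under the muscle promoter of *myo-3*. H3K27ac and an MNase control without antibody were profiled in both genotypes, whereas H3K9me2 and H3K9me3 were profiled in WT. Each of the 6 groups had 1 library. There was thus no spread between replicates, no test was made, and every difference below is between libraries. Whether the sorted cells carry muscle markers, and the *met-2* locus itself, were not analysed here, since no gene annotation of the assembly used for the windows (ce10) was at hand.

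MET-2 is the SETDB1-like methyltransferase that deposits H3K9me1 and H3K9me2, and SET-25 deposits H3K9me3. Both H3K9me2 and H3K9me3 mark silent heterochromatin. H3K27ac is placed by acetyltransferases at active promoters and enhancers. In *C. elegans* the repeat-rich and H3K9-methylated chromatin lies mainly on the arms of the autosomes, whereas the centres are rich in widely expressed genes.

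The libraries held 23481832 reads for H3K27ac in the *met-2* mutant and 13658228 in WT, 23850236 for H3K9me2 and 28519008 for H3K9me3 in WT, and 2475550 in the *met-2* control and 9880324 in the WT control. In the higher windows this gave a median of 194 raw reads for *met-2* H3K27ac and 67 for WT H3K27ac, 131 for H3K9me2, 220 for H3K9me3, 16 in the *met-2* control and 44 in the WT control. The *met-2* control was thus the least precise library, and 77 higher windows had no read in it.

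The median of the H3K27ac difference over the higher windows was 0.64 on the log2 scale, with quartiles of 0.56 and 0.77 and a maximum of 2.33. Most windows therefore lay close above the threshold. Summed over all higher windows, H3K27ac reads were 1.65-fold higher in the *met-2* mutant than in WT, and reads of the MNase control were 1.21-fold higher in the *met-2* mutant. Over all kept windows the control ratio was 0.993. The higher windows held 5.91% of all *met-2* H3K27ac reads and 3.58% of all WT H3K27ac reads. Exact 95% intervals for counting error (Clopper-Pearson, without the pseudocount) had a lower limit above 0 in 6703 higher windows (98.1%), and above 0.5 in 1047. These counts describe the depth of the selected windows and are no support for the difference, because the same reads chose the windows, and the intervals leave out any variation between preparations.

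The threshold did not mark a gap in the distribution. Just inside it were I:8136926-8137925, with 262 scaled H3K27ac reads in the *met-2* mutant and 183 in WT, and I:11958891-11959890, with 172 in the *met-2* mutant and 119.3 in WT. Just outside were IV:5917069-5918068 and IV:12654007-12655006, each with 184 in the *met-2* mutant and 128 in WT. At the same distance below zero, 2855 windows (2.93%) had less H3K27ac in the *met-2* mutant. Above a difference of 1 there were 541 higher windows (0.555% of kept windows), against 44 windows below -1.

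The higher windows were windows of few H3K27ac reads. Their median was 140 scaled reads in the *met-2* mutant and 83.3 in WT, and over all kept windows it was 166 in the *met-2* mutant and 163 in WT. In reads, the *met-2* median of the higher windows thus stayed under that of kept windows. Over the control of the same genotype (log2), *met-2* H3K27ac had a median of 0.34 in higher windows and 0.12 in kept windows. WT H3K27ac over its control had 0.12 in higher windows and 0.31 in kept windows. H3K27ac chose the windows, so these values are a description. When kept windows were split by mean H3K27ac into 5 bins of equal size, the share that was higher in the *met-2* mutant fell with level, at 17.4% in the lowest bin, then 9.05%, 4.96%, 2.51% and 1.12% in the highest. The lowest bin held 3395 higher windows (49.7%), and the highest bin 219 (3.20%). Windows lower in the *met-2* mutant had no such gradient, at 3.61%, 2.46%, 2.19%, 2.68% and 3.71% in the same bins. Counting error is larger where reads are few, and its part in this gradient was not tested. The plot of difference against level shows both the funnel at low levels and the excess on its upper side.

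**Figure D1:**
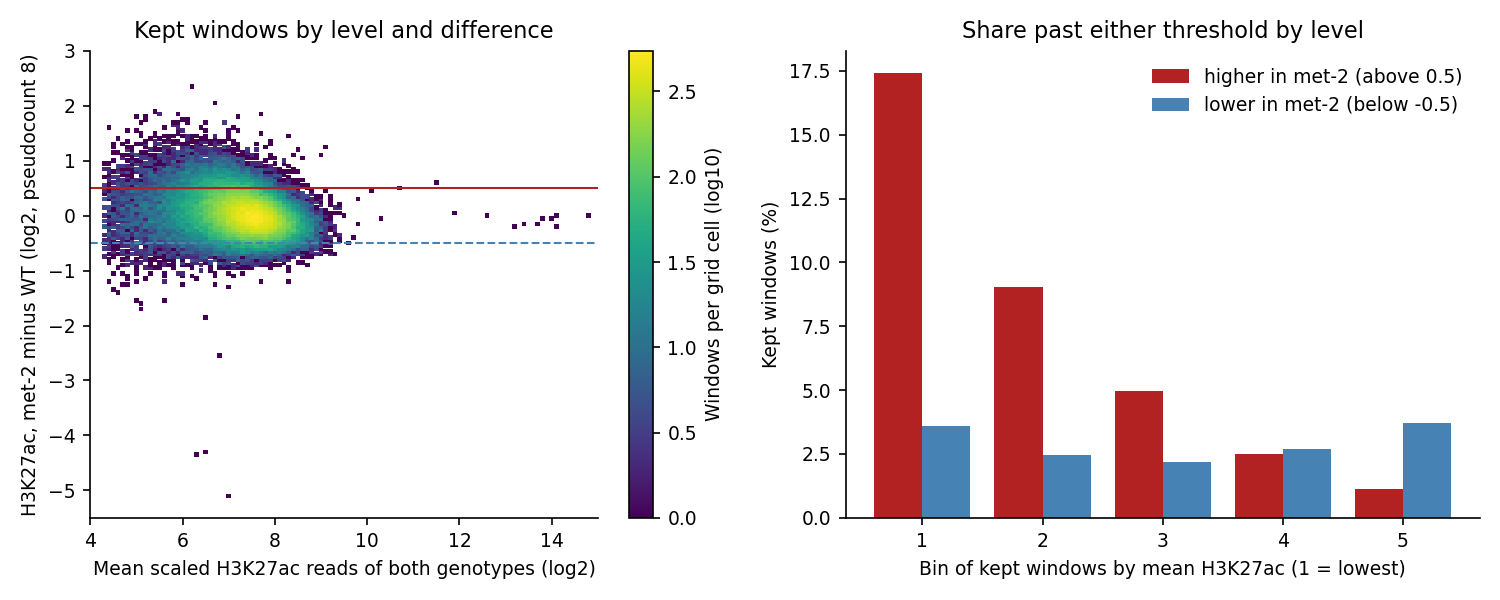
Left, H3K27ac log2 difference (*met-2* minus WT, pseudocount 8) of kept windows against their mean scaled H3K27ac reads (log2), coloured by the number of windows per grid cell (log10), with the thresholds at 0.5 (solid) and -0.5 (dashed). Right, percentage of kept windows past each threshold in 5 equal bins of mean H3K27ac, in which the higher windows make up 17.4% of the lowest bin and 1.12% of the highest.

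Windows with a larger difference had fewer H3K27ac reads in both genotypes. The 2686 windows with a difference of 0.5 to 0.6 had medians of 149.7 scaled reads in the *met-2* mutant and 99.4 in WT. The 42 windows above 1.5 had medians of 96.5 in the *met-2* mutant and 24.9 in WT. The strongest differences were therefore found where WT H3K27ac was lowest, as the difference itself favours.

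The 10 windows with the largest difference are shown for their values in each library. X:100825-101824 led, with 132 scaled H3K27ac reads in the *met-2* mutant and 19.9 in WT, a difference of 2.33 (counting interval 2.00 to 3.57), and 13.7 control reads in the *met-2* mutant against 20.6 in WT. Its H3K9me2 was 37.7 and its H3K9me3 63.1. These control values rest on 2 raw reads in the *met-2* mutant and 12 in WT. The counting interval of the control ratio was 0.072 to 2.99, so the direction of the control is not settled in this window.

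V:19817985-19818984 followed, with 176 H3K27ac reads in the *met-2* mutant and 36.0 in WT (difference 2.07), beside 109.7 control reads in the *met-2* mutant and 24.1 in WT. Here the control differed in the same direction as H3K27ac. In III:11762843-11763842, H3K27ac was 322 in the *met-2* mutant and 84.5 in WT, with control reads of 151 in the *met-2* mutant and 36.1 in WT. In II:12196326-12197325, H3K27ac was 232 in the *met-2* mutant and 62.2 in WT, with control reads of 192 in the *met-2* mutant and 32.6 in WT. In these last 3 windows the *met-2* mutant had more reads without antibody as well.

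The other windows of this group had few H3K27ac reads in both genotypes. II:1769422-1770421 had 71.6 H3K27ac reads in the *met-2* mutant and 13.7 in WT, and III:13194830-13195829 and IV:15975976-15976975 each had 74.5 in the *met-2* mutant and 14.9 in WT. V:17172010-17173009 had 99.8 in the *met-2* mutant and 22.4 in WT, I:656995-657994 had 62.9 in the *met-2* mutant and 12.4 in WT, and I:13085880-13086879 had 54.2 in the *met-2* mutant and 9.94 in WT. Their differences were 1.79 to 1.88. The controls of these windows went in either direction, with 165 reads in the *met-2* mutant and 15.5 in WT at V:17172010-17173009, and 0 raw reads in the *met-2* mutant and 7 in WT at III:13194830-13195829. All 9 autosomal windows of the 10 lay on chromosome arms.

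The higher windows with the most *met-2* H3K27ac formed a different group. IV:13548999-13549998 had 3468 scaled reads in the *met-2* mutant and 2271 in WT (difference 0.61), but it was high in all 6 libraries, with 7804.5 control reads in the *met-2* mutant and 2974 in WT, 14062 reads of H3K9me2 and 8968 of H3K9me3. Whether it holds repeated sequence, where the counting is uncertain, was not analysed here, and the window is not read further. V:265167-266166 on the left arm had 690 H3K27ac reads in the *met-2* mutant and 317 in WT, 1177 H3K9me3 reads, and 830 control reads in the *met-2* mutant against 301 in WT. The remaining 3, III:11778843-11779842 (783 in the *met-2* mutant, 327 in WT), III:11775843-11776842 (523 in the *met-2* mutant, 252 in WT) and III:11781843-11782842 (515.5 in the *met-2* mutant, 216 in WT), were parts of 1 run described below.

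All chromosomes held higher windows, with chromosome V at the top and X at the bottom. On V, 1843 windows (9.17% of kept windows) were higher, on IV 1443 (8.55%), on II 1126 (7.56%), on III 834 (6.19%), on I 800 (5.44%) and on X 789 (4.53%). Windows lower in the *met-2* mutant ranged from 2.26% on X to 3.88% on III, with 2.81% on V.

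Within autosomes the higher windows lay on the arms. Of 49408 kept arm windows 5351 (10.8%, 95% Wilson interval 10.6 to 11.1) were higher, against 695 of 30645 centre windows (2.27%, 2.11 to 2.44). The arms thus held 88.5% of the higher autosomal windows, 61.7% of kept autosomal windows and 56.8% of the autosomal windows that were lower in the *met-2* mutant. The intervals treat windows as independent, which neighbours are not.

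This distribution was found on each of the 5 autosomes, where both arms had a higher share than the centre between them. The right arms of IV (761 windows, 14.9%) and V (1009, 14.9%) had the highest shares, followed by the left (606, 13.4%) and right (400, 12.1%) arms of II. The right arm of IV is known for a large cluster of piRNA genes. The lowest share among arms was 7.26%, on the right arm of I, and the shares of the 5 centres were 1.66% to 3.29%. The lowest arm thus exceeded the highest centre.

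With each chromosome cut into 10 equal segments from left to right, the share peaked at 20.6% in segment 9 of V (406 windows), 19.5% in segment 10 of IV (328) and 16.8% in segment 2 of II (245), and was lowest at 0.854% in segment 6 of II. On X, where no arm borders were applied, 3 equal segments from left to right held 6.21%, 3.24% and 4.20%, and the left end stood out, with 12.4% in the leftmost of 10 segments (208 windows). The highest segment lay next to the end segment on II, III and V, and was an end segment on I, IV and X.

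**Figure D2:**
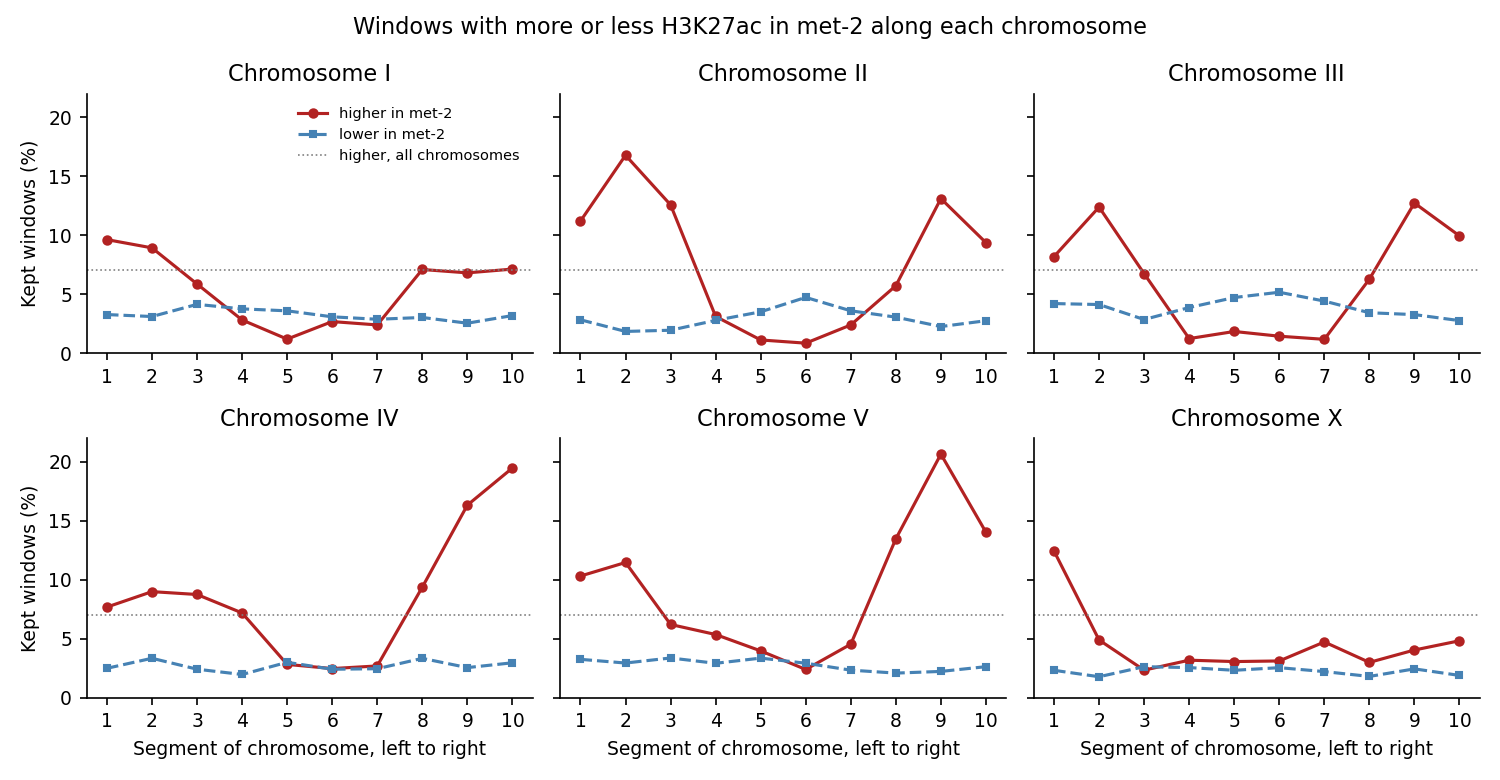
Percentage of kept windows with H3K27ac higher (red circles) or lower (blue squares) in the *met-2* mutant than in WT, by segment (10 per chromosome) from left to right, with the higher share of all chromosomes (7.01%) as a dotted line. The higher windows peak towards chromosome ends, up to 20.6% in segment 9 of V, whereas the lower windows stay between 1.79% and 5.17%.

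The share on arms grew with the difference. It was 84.1% of higher autosomal windows with a difference of 0.5 to 0.6, 88.3% at 0.6 to 0.75, 93.5% at 0.75 to 1, 97.2% at 1 to 1.5 and 100% above 1.5. Since arms have less H3K27ac than centres, the comparison was repeated at an equal mean H3K27ac of both genotypes. Within the 5 bins of mean H3K27ac from low to high, arms held 94.4%, 87.6%, 77.4%, 73.3% and 78.9% of the higher windows, beside 88.4%, 72.3%, 57.7%, 46.4% and 38.3% of kept windows. With kept windows reweighted to the levels of the higher windows in 20 bins, the shares were 88.5% for higher windows and 76.7% for kept windows. After reweighting, the shares of higher and kept windows were thus closer to each other than over all windows. In each of the 5 bins the higher windows lay more on arms than the kept windows did, with the widest gap in the highest bin.

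The clustering of higher windows was described at 2 scales. At the scale of neighbours, 2258 higher windows (33.0%, Wilson interval 31.9 to 34.2) had another higher window directly next to them, while 12.6% of kept windows did. The interval again treats windows as independent, although adjacent windows count each other. Windows lower in the *met-2* mutant had a like neighbour in 12.4% of cases, beside 5.61% of kept windows with a lower window next to them. A lower window was next to 2.50% of higher windows. The share with a higher neighbour was 24.8% at a difference of 0.5 to 0.6, 50.5% at 1 to 1.5 and 69.0% above 1.5. At an equal mean H3K27ac of both genotypes (20 bins) the shares were 33.0% of higher windows and 17.7% of kept windows.

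At the scale of domains, the surplus reached far beyond the neighbour. Of kept windows 1 kb from a higher window, 20.1% were higher. At 2 kb the share was 16.6%, at 10 kb 14.0%, at 100 kb 11.9%, at 500 kb 10.3% and at 1000 kb 9.62%, still above the 7.01% of all kept windows. On autosomal arms as a whole 10.8% of kept windows were higher, near the shares at 100 and 500 kb. How much of the surplus at these distances is the position on arms was not tested. Around windows lower in the *met-2* mutant, the share of lower windows was 6.71% at 1 kb, 4.03% at 2 kb and 3.31% at 10 kb, near their 2.93% overall. The lower windows thus clustered over a few kb, whereas the higher windows were also surrounded by more of their kind at each of the distances computed up to 1000 kb.

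**Figure D3:**
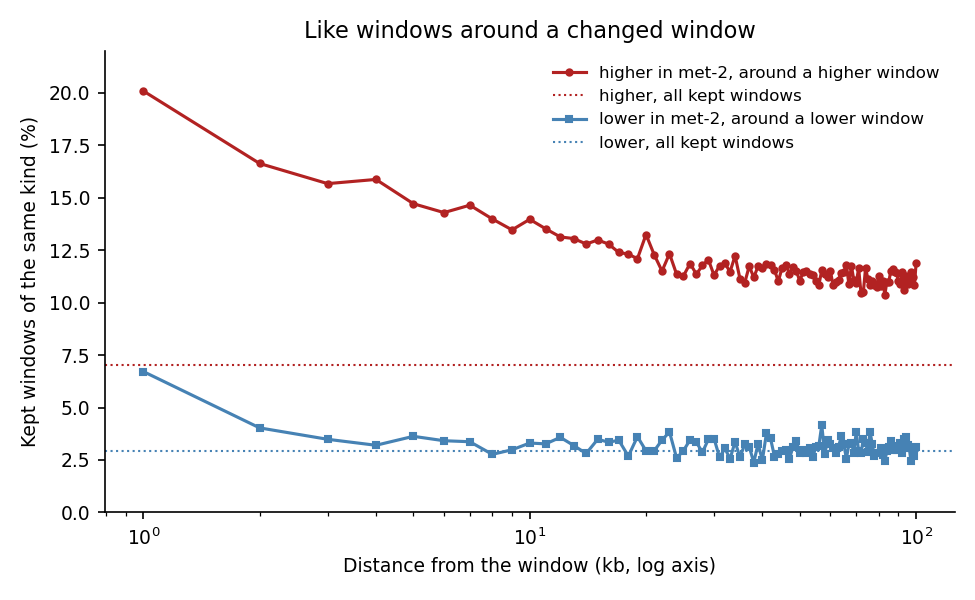
Percentage of kept windows of the same kind against distance (kb, log axis) from a window that was higher (red circles) or lower (blue squares) in the *met-2* mutant, with dotted lines for the share of all kept windows. Around higher windows the share falls from 20.1% at 1 kb to 11.9% at 100 kb and stays above 7.01%, and around lower windows it nears 2.93% within a few kb. The share of higher windows on autosomal arms as a whole is 10.8%.

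The higher windows formed 5493 runs of adjacent windows. Of these 4577 were single windows, 676 were pairs, 210 had 3 to 4 windows and 30 had 5 or more, the last holding 224 windows. The longest run had 28 windows, and the longest run of lower windows had 5. Longer runs lay more on arms, at 84.4% of autosomal single windows, 94.4% of windows in pairs, 98.9% in runs of 3 to 4 and 100% in runs of 5 or more. The median difference was 0.62 in single windows and 0.80 in runs of 5 or more, and the median control difference (*met-2* minus WT) was 0.39 in single windows and 0.60 in the long runs. WT H3K9me3 hardly differed between them, at a median of 136 scaled reads in the long runs and 131 in single windows.

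The longest run, III:11756843-11784842 on the right arm of III, stood apart. H3K27ac averaged 327 scaled reads per window in the *met-2* mutant and 149 in WT, 2.20-fold higher (counting interval 2.12 to 2.29), and the difference of its 28 windows was 0.64 to 1.83. The MNase control was higher by nearly as much, with 275 reads per window in the *met-2* mutant and 133 in WT, a ratio of 2.07 (1.92 to 2.23), and exceeded WT by more than 0.5 on the log2 scale in 21 of the 28 windows. The reads of both *met-2* libraries were thus higher there, with and without antibody.

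The surroundings of this run did not share the difference. In the 28 windows on either side, the ratio of *met-2* to WT was 1.06 for H3K27ac and 0.841 for the control. Of 99874 stretches of 28 windows along the chromosomes, counted with overlaps and with the run included, 3 had an H3K27ac ratio as high and 0.0871% a control ratio as high. The run was chosen by its H3K27ac difference, so its rank by H3K27ac was set by that choice. Neither rank is a test. H3K9me2 had a median of 95.7 scaled reads in the run and 130 in the flanks, and H3K9me3 133 in the run and 160 in the flanks. Whether the copy number of this segment differs between the strains was not tested.

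**Figure D4:**
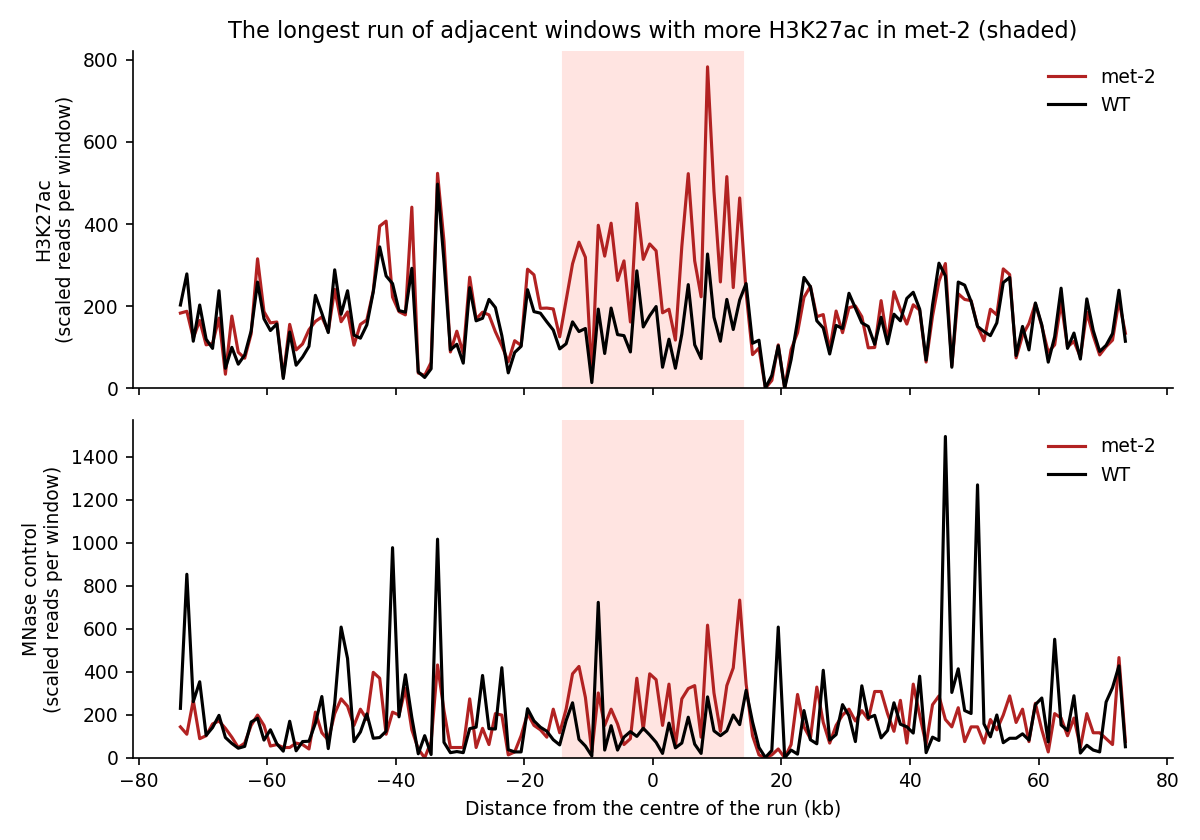
Scaled reads per window of about 1 kb against distance (kb) from the centre of the longest run of higher windows (shaded) for H3K27ac (top) and the MNase control (bottom) in the *met-2* mutant (red) and WT (black). In the 28 shaded windows H3K27ac is 2.20-fold and the control 2.07-fold higher in the *met-2* mutant, whereas in the 28 windows on either side the ratios are 1.06 and 0.841.

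In the next runs by length H3K27ac and the control went together less. X:90825-104824 (14 windows near the left end of X) had 96.0 H3K27ac reads per window in the *met-2* mutant and 42.6 in WT, 2.25-fold higher (2.04 to 2.50), with a control ratio of 1.37. Its H3K9me3 averaged 95.7 reads and its H3K9me2 149.5. V:16912012-16923011 had 120 in the *met-2* mutant and 58.3 in WT (2.06-fold), with a control ratio of 1.14. V:17771004-17782003 had 135 in the *met-2* mutant and 71.4 in WT (1.90-fold), with a control ratio of 1.33. The control ratio in these 3 runs of 11 to 14 windows was smaller than that of H3K27ac. The choice of windows favours this, since H3K27ac alone was selected on, and no conclusion is drawn from it.

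V:18233000-18243999 was an exception, with 114 H3K27ac reads per window in the *met-2* mutant and 67.2 in WT (1.69-fold) beside a control ratio of 1.64. It was also among the runs with more H3K9me3, at 234 reads per window.

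On the left arm of II, 18 of 19 windows in a row were higher. II:1918421-1929420 (11 windows) had 176 H3K27ac reads per window in the *met-2* mutant and 90.9 in WT (1.94-fold), with a control ratio of 1.24. II:1910421-1917420 (7 windows, named here for its place beside the other run) had 149 in the *met-2* mutant and 67.7 in WT (2.20-fold), with a control ratio of 0.617. The single window between them had 239 in the *met-2* mutant and 206 in WT, a difference of 0.20. H3K9me3 averaged 219 reads per window in the longer run and 201 in the shorter. These means of H3K9me3 were above 159, the median of single kept windows, which is a different measure. The control was higher in the *met-2* mutant in the longer run and lower in the shorter.

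Counted in blocks of 100 kb, higher windows were unevenly spread. Of 1004 blocks 59 held none, the median was 5, and 52 blocks with at least 20 held 1350 of them (19.8%). The variance of the count was 6.10 times its mean, against 1.28 times for lower windows. As few as 200 blocks (19.9%) held 50% of the higher windows. The 52 dense blocks lay on V (19), II (13), IV (13), III (3), X (3) and I (1).

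The 5 blocks with the most higher windows were II:2100001-2200000, in which 39 of 99 kept windows (39.4%) were higher, X:1-100000 (38 of 81, 46.9%), III:11700001-11800000 (35 of 98, with the longest run in it), IV:15900001-16000000 (35 of 100) and II:12100001-12200000 (34 of 100). V:18300001-18400000 tied with the last of these (34 of 94). In II:2100001-2200000, H3K27ac averaged 123 scaled reads per window in the *met-2* mutant and 95.4 in WT, and the control 143 in the *met-2* mutant and 135 in WT. In X:1-100000 it averaged 91.5 in the *met-2* mutant and 67.1 in WT, with controls of 96.9 in the *met-2* mutant and 94.7 in WT. Both blocks had more H3K27ac reads in the *met-2* mutant over all their windows, as their choice favours, while their controls were nearly level. Their median control differences (*met-2* minus WT, log2) were 0.15 on II and -0.001 on X. The other named blocks had larger ones, at 0.28 in III:11700001-11800000, 0.50 in IV:15900001-16000000, 0.20 in II:12100001-12200000 and 0.31 in V:18300001-18400000.

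Dense blocks often touched each other. Over II:1800001-2200000, 32.9% of 362 kept windows were higher and 1 was lower. IV:15900001-16200000 held 95 of 294 (32.3%), IV:16600001-17000000 95 of 386 (24.6%), V:18200001-18400000 66 of 190 (34.7%), X:1-300000 91 of 236 (38.6%), II:12000001-12300000 81 of 300 and V:20000001-20300000 70 of 294 (23.8%). These 7 regions, which held the most higher windows among touching dense blocks, lay on the right arms of IV and V, both arms of II and the left end of X. In II:1900001-2000000, where 32 of 74 kept windows were higher, H3K9me3 averaged 292 reads per window and H3K9me2 146.

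The WT H3K9 marks were compared first by reads alone. The higher windows had a median of 93.3 scaled H3K9me2 reads (quartiles 57.7 and 139), and all kept windows 144.5 (101.1 and 204), which is 0.59 lower on the log2 scale. For H3K9me3 the median was 131 (94.7 and 174) in higher windows and 159 (121 and 205) in kept windows, which is 0.26 lower. The quartile ranges of higher and kept windows overlapped for both marks. Windows lower in the *met-2* mutant had a median of 167 for H3K9me2 and 155 for H3K9me3. The order was the same on all 6 chromosomes, with higher windows 0.44 to 0.84 under the kept windows for H3K9me2 and 0.17 to 0.48 under them for H3K9me3. It was also the same on arms taken alone (-0.56 for H3K9me2 and -0.24 for H3K9me3) and on centres taken alone (-0.54 for H3K9me2 and -0.25 for H3K9me3).

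By reads alone, then, the windows richest in H3K9me2 were seldom among those with more H3K27ac in the *met-2* mutant. Of the 10% of kept windows with the most H3K9me2, 207 (2.12%) were higher, and of the 10% with the most H3K9me3, 354 (3.61%), against 7.01% of kept windows. Where a window was in the top 10% for both marks, 52 (1.75%) were higher. At the other end, 23.2% of the 10% with the least H3K9me2 (2273 windows, 33.3% of all higher windows) and 16.2% of the 10% with the least H3K9me3 (1597) were higher. The controls gave the same gradient, which bears on how these shares can be read. With windows in 5 bins by the reads of 1 library, higher windows made up 17.1% of the lowest and 2.40% of the highest bin for H3K9me2, 13.1% and 3.75% by H3K9me3, 12.7% and 3.14% by the *met-2* control, and 15.5% and 2.64% by the WT control.

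The higher windows had few reads in every library. The controls had medians of 110 scaled reads in the *met-2* mutant and 75.6 in WT, against 151 in the *met-2* mutant and 125 in WT over all kept windows. When a control was subtracted from the marks, the picture changed. H3K9me3 over the WT control had a median of 0.74 in higher windows and 0.32 in kept windows, and it exceeded 0.5 in 4100 higher windows (60.0%) and in 42.6% of kept windows. Over the *met-2* control the medians were 0.25 in higher windows and 0.09 in kept windows, and the mark exceeded 0.5 in 38.0% of higher windows (2597) and 29.4% of kept windows. H3K9me3 was thus lower in higher windows by reads alone and higher relative to either control.

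H3K9me2 did not follow H3K9me3 in this. Over the WT control its medians were 0.23 in higher windows and 0.18 in kept windows, and it exceeded 0.5 in 37.2% of higher and 36.1% of kept windows. Over the *met-2* control the medians were -0.22 in higher windows and -0.03 in kept windows, and it exceeded 0.5 in 23.5% of higher and 27.9% of kept windows. H3K9me2 was thus near or under the level of kept windows by each measure. The marks were also set against each other, without a control. The log2 difference of H3K9me3 minus H3K9me2 had a median of 0.50 in higher windows, 0.15 in kept windows and -0.07 in windows lower in the *met-2* mutant, so that the higher windows were H3K9me3-rich relative to H3K9me2.

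At an equal mean H3K27ac of both genotypes, H3K9me2 was lower and H3K9me3 level. The choice of windows gives higher windows less WT H3K27ac than kept windows of the same mean, so WT H3K27ac was not matched. Across the 5 bins of mean H3K27ac from low to high, higher windows had H3K9me2 medians under those of kept windows by -0.36, -0.32, -0.28, -0.36 and -0.45, and H3K9me3 differences of -0.06, 0.05, 0.05, 0.04 and -0.04. The WT control differed by -0.42, -0.36, -0.38, -0.40 and -0.41, as far as H3K9me2, and the *met-2* control by -0.11, -0.04, -0.06, -0.11 and -0.04. With level and the WT control matched together in 25 bins, the mean difference was -0.24 for H3K9me2 and 0.03 for H3K9me3. WT H3K27ac, which chose the windows, WT H3K9me2 and the WT control were thus all low in them. H3K9me3 and the *met-2* control were near the level of kept windows with the same mean H3K27ac of both genotypes. Whether this comes from chromatin or from the preparations was not tested.

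**Figure D5:**
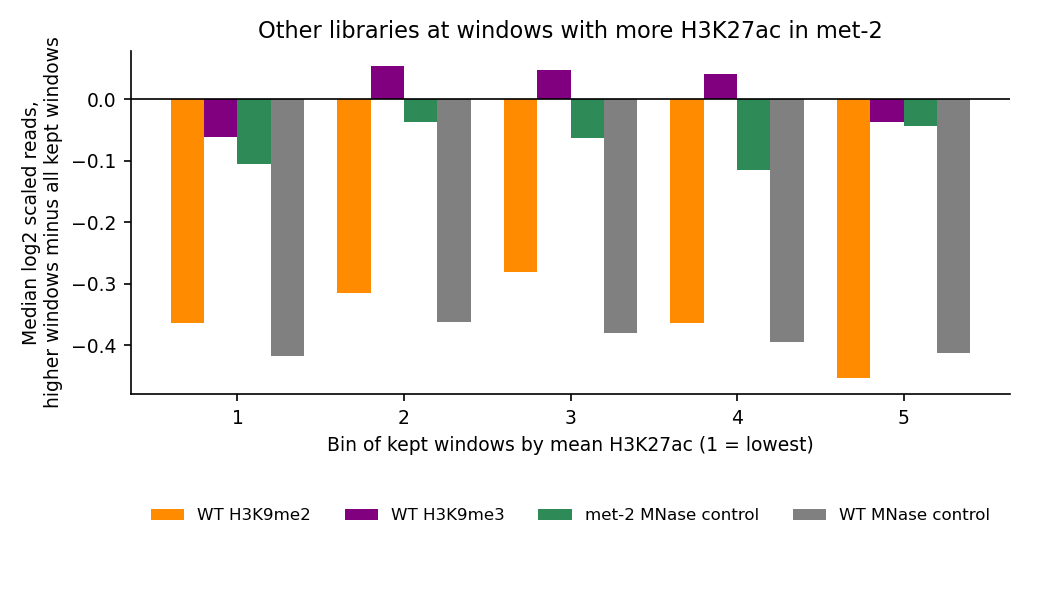
Median log2 scaled reads of higher windows minus that of all kept windows, in 5 bins of mean H3K27ac from lowest (1) to highest (5), for WT H3K9me2 (orange), WT H3K9me3 (purple), the *met-2* MNase control (green) and the WT MNase control (grey). H3K9me2 and the WT control lie 0.28 to 0.45 under the kept windows in each bin, whereas H3K9me3 lies within 0.06 of them.

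The size of the H3K27ac difference followed the same lines. Over the 97452 kept windows, its Spearman correlation was -0.264 with H3K9me2, -0.134 with H3K9me3, -0.163 with the *met-2* control, -0.236 with the WT control and 0.201 with H3K9me3 minus H3K9me2. With the mean H3K27ac of both genotypes, whose reads also enter the difference, it was -0.271. These describe windows of the same 6 libraries, which share sequence, mappability and neighbours. Across classes of rising difference in the higher windows, the median log2 of H3K9me2 was 6.81 at 0.5 to 0.6 and 5.33 above 1.5, and that of H3K9me3 was 7.20 and 6.43.

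A few higher windows had many H3K9me2 or H3K9me3 reads. Beside the window of IV that was high in all libraries, the most H3K9me2 was found in I:14049871-14050870 (1965 scaled reads), IV:15983976-15984975 (1293), II:14748302-14749301 (1000.1) and II:14779302-14780301 (997). IV:15983976-15984975 had 277 H3K27ac reads in the *met-2* mutant and 116 in WT (difference 1.20), beside a control that went the other way, with 110 reads in the *met-2* mutant and 328 in WT. The other 3 had differences of 0.50 to 0.60. The windows with the most H3K9me3 after V:265167-266166 were II:1859421-1860420 (617), V:17577006-17578005 (586) and II:1945421-1946420 (584), with H3K27ac differences of 0.54, 0.77 and 0.53. In II:1859421-1860420 the controls had more reads than H3K9me3, at 1042 in the *met-2* mutant and 1022 in WT. Its H3K9me3 reads are thus no enrichment over either control. V:17577006-17578005 had control reads of 281 in the *met-2* mutant and 244 in WT, and II:1945421-1946420 had 117 in the *met-2* mutant and 63.6 in WT. All of these windows lay on chromosome arms.

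The MNase controls also differed between the genotypes, at the median in the direction of H3K27ac. The log2 difference of the controls (*met-2* minus WT) had a median of 0.41 in higher windows, 0.19 in kept windows and -0.09 in windows lower in the *met-2* mutant, and it exceeded 0.5 in 46.8% of higher windows, 38.2% of kept windows and 29.6% of lower windows. The median H3K27ac difference of 0.64 cannot be set against that of the control, since H3K27ac alone was selected on.

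Windows were next divided by the control difference. Where the control was higher in the *met-2* mutant by more than 0.5, 8.59% of windows were higher for H3K27ac. Where the controls were within 0.5 of each other the share was 6.52%, and where the *met-2* control was lower by more than 0.5 it was 5.41%. In these 3 classes 88.4%, 88.2% and 89.3% of higher autosomal windows lay on arms, beside 60.5%, 60.7% and 64.7% of kept windows. A higher neighbour was found for 33.9%, 32.4% and 32.0% of the higher windows, and H3K9me2 was 0.62, 0.54 and 0.56 under that of kept windows of the same class. With the control of the same genotype subtracted from H3K27ac, 2881 of the higher windows (42.2%) still exceeded 0.5, as did 28.1% of all kept windows. Position and clustering changed when windows were chosen on that subtracted difference instead. Arms then held 67.9% of the higher autosomal windows, beside 61.7% of kept windows, and 54.6% of the higher windows had a higher neighbour, beside 47.1% of kept windows.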

How the data were processed

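The deposited values are raw read counts per genomic window (ce10). The authors used Trimmomatic (0.39 in the submitters' processing notes) for trimming, bowtie2 in sensitive mode for alignment, Bismark for deduplication and QuasR for counting, irrespective of orientation. The windows are about 1 kb wide, apart from 12, which is wider than the tiling the methods name. How multi-mapping reads and the adaptor's molecular identifiers were treated was not given in the sources used here, so counts over repeats are uncertain.

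The table held 100293 windows. The 14 mitochondrial ones were left out, and 100279 remained. Counts were scaled to the average total, and log2(scaled reads + 8) was taken, in Python 3.11.15 with pandas 2.3.3, numpy 2.4.6 and scipy 1.17.1. The code was tried on simulated counts with changes larger than the median difference of the higher windows. These changes were not placed in windows of the lowest H3K27ac levels, so the trial does not cover many of the calls. Autosomal windows were assigned to arms or centres by their midpoints, with the study's borders. X was not split. Groups were read from the sample titles, with 1 library each, so that no p-value was computed. Counting intervals are exact binomial intervals of the reads, at 95%, and cover counting error only.

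The windows and lists were chosen with earlier results of these data known. Regions were named by rule: the 10 higher windows with the largest difference, the 6 longest runs, the 5 windows each with the most *met-2* H3K27ac, H3K9me2 and H3K9me3, the 5 blocks of 100 kb with the most higher windows, and the 2 windows nearest the threshold on each side. The adjoining run on II, the tied block on V and the regions of touching dense blocks were named after their values were seen. Alternatives were a pseudocount of 1, a minimum of 50 scaled reads or none, TMM scaling (edgeR 4.0.16, R 4.3.3), totals without the mitochondrial genome, a threshold of 1, counts summed to 10 kb, subtraction of a control, the outer 25% of each chromosome as arms and, chosen after seeing the data, leaving out the longest run.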

Additional observations from a re-analysis of the deposited data

How the results depend on the processing

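Of 59 recomputed values 32 stayed close to the reported value, 22 moved further and 5 changed direction, where close meant within 1.5 times for the number of windows and within the interval across windows for the other values. These intervals treat windows as independent, which neighbours are not. The number of higher windows, 6835, was 541 at a threshold of 1, 97 at 10 kb (of 9990, with 6 lower) and 27429 with the control of the same genotype subtracted (with 36083 lower, and the median of kept windows at -0.15). That subtraction adds the counting noise of the shallow *met-2* control. TMM scaling gave 6176 higher and 3235 lower windows, so that 65.6% of calls were higher in place of 70.5%. The share with a higher neighbour, 33.0%, was 35.5% with a pseudocount of 1, 31.2% with a minimum of 50, 13.5% at a threshold of 1, which leaves fewer windows, and 54.6% with the control subtracted (47.1% of kept windows). The share on arms, 88.5%, was 97.4% at a threshold of 1, 97.7% at 10 kb (62.1% of kept), 67.9% with the control subtracted (61.7% of kept) and 77.0% with the outer 25% as arms (49.6% of kept). For H3K9me2, the difference of -0.59 was -0.55 with a minimum of 50, -0.63 without a minimum, -1.18 at a threshold of 1, -0.67 at 10 kb and 0.040 with the control subtracted, and the mark gave 0.048 over the WT control and -0.19 over the *met-2* control. For H3K9me3, the difference of -0.26 was -0.28 with a pseudocount of 1, -0.23 with a minimum of 50, -0.64 at a threshold of 1, -0.18 at 10 kb and -0.085 with the control subtracted, and the mark gave 0.42 over the WT control and 0.16 over the *met-2* control. The control difference of 0.22 (higher minus kept windows) was 0.29 at a threshold of 1 and -1.23 with the control subtracted, where it enters the selection itself. The cause of the other moves was not tested. Leaving out the longest run, chosen after seeing the data, gave 6807 windows and left all 6 values close. No paired analysis was possible because there were no replicates to pair. The depth of the *met-2* control, with a median of 16 reads in the higher windows, limits every value that rests on it, and the spread between preparations is unknown for all of them.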

Other observations

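The kept windows with the largest H3K27ac difference in the other direction were few and adjacent, and were singled out after their values were seen. V:5080122-5081121, V:5081122-5082121 and V:5082122-5083121 had 2, 0 and 0 raw H3K27ac reads in the *met-2* mutant against 144, 213 and 127 in WT, and no control read in the *met-2* mutant against 67, 90 and 87 in WT. III:8375874-8376873 and III:8376874-8377873 had 49 and 36 raw H3K27ac reads in the *met-2* mutant against 120 and 153 in WT, and 4 and 11 control reads in the *met-2* mutant against 87 and 66 in WT. Reads of both *met-2* libraries were thus absent or scarce in these stretches. Whether they are deletions in the mutant strain was not tested.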
